A study of Mus musculus with 42 samples.

Results

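The effect of a diet free of branched-chain amino acids (BCAA) that vehicle-treated and chemotherapy-treated mice shared was measured in ribosome footprints of MLL-AF9 acute myeloid leukaemia cells. All 21 footprint libraries entered it, of 42 libraries in the series, which also holds an mRNA library of each mouse. Footprint counts of 12 mice on the BCAA-free diet were set against those of 9 mice on the standard amino acid (AA) diet, with treatment as a covariate. Of 9890 protein-coding genes tested, 2571 passed an adjusted p of 0.05 in this shared term. The genes described here are the 2493 of them whose log2 change had the same sign under vehicle and under chemotherapy.

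The groups were the AA diet with vehicle (5 mice), the BCAA-free diet with vehicle (5 mice), the AA diet with 5+3 (4 mice) and the BCAA-free diet with 5+3 (7 mice). The 5+3 course was cytarabine, a nucleoside analogue, at 100 mg/kg on each of 5 days, with doxorubicin, a topoisomerase poison, at 3 mg/kg on the first 3 of them. Vehicle mice received PBS. All groups were males of 8 to 10 weeks, labelled WT, that were given the leukaemia cells by vein and had no conditioning, so their own blood formation remained. The leukaemia came from a single sick mouse and was expanded in culture with SCF, IL-3 and IL-6. Mice therefore replicate the host and not the leukaemia. The cells carry GFP and luciferase, and viable GFP-positive cells were sorted from crushed bones once the treatment response had peaked.

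Leucine, isoleucine and valine are essential amino acids that mammals take up from food, incorporate into protein and break down in mitochondria. Lack of an amino acid is known to act through uncharged tRNA and the kinase GCN2 on translation initiation, and lack of leucine lowers the activity of the mTORC1 kinase. Footprints are the mRNA fragments left inside ribosomes after nuclease digestion, so their counts per gene reflect the amount of an mRNA together with the density of ribosomes on it.

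Footprint libraries held 2697092 to 8863472 gene counts, of which 1358900 to 4768691 (49.0% to 56.1%) fell on protein-coding genes. Levels are given in CPM, a gene's count relative to 1000000 protein-coding counts in its library, after scaling. All 12 markers of leukaemia cell identity passed the filter on low counts. Their summed level was 10734 to 16414 CPM in AA vehicle mice and 11847 to 16774 CPM in BCAA-free vehicle mice. After 5+3 it was 15959 to 19211 CPM on the AA diet and 11890 to 15755 CPM on the BCAA-free diet, without overlap. Of the 12 markers, 2 were called higher and 3 lower the same way (41.7%, beside 25.2% of all genes tested). Skeletal muscle genes differed between the groups. The summed level of 14 tested markers was 1220 to 2258 CPM in AA vehicle and 838 to 1020 CPM in BCAA-free vehicle mice. Every AA vehicle mouse thus lay above every BCAA-free vehicle mouse in this sum. It was 892 to 1411 CPM in AA 5+3 and 660 to 1051 CPM in BCAA-free 5+3 mice. By 1 of these genes, Myh4, 5 AA libraries stood apart and are called high in muscle genes below. Footprints of Myh4, a fast myosin heavy chain, were 223, 87.5, 3.20, 2.93 and 2.72 CPM in the AA vehicle mice and 38.4, 88.5, 86.1 and 1.13 CPM in the AA 5+3 mice. They were 17.7, 9.85, 1.34, 21.9 and 0.831 CPM in the BCAA-free vehicle mice and 0.256 to 13.5 CPM in the BCAA-free 5+3 mice. The footprint counts of genes, gene lists and named genes were therefore also computed in the 16 mice left without those 5, which leaves 3 AA vehicle mice and 1 AA 5+3 mouse. The mRNA, translational efficiency, promoter and overlap counts and the marker sums were computed with all mice alone. The part of the muscle signal in the diet difference was not tested. The AA vehicle mice also carry a suffix B in their names, and if it marks a batch, that batch and the group cannot be told apart.

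Most genes of the shared effect changed by less than 2-fold, and the change was larger after chemotherapy. The shared term called 26% of the genes tested, 1144 higher (11.6%) and 1427 lower (14.4%) on the BCAA-free diet, by edgeR's quasi-likelihood test with Benjamini-Hochberg adjustment. Of the 2493 genes (25.2% of those tested) that also kept 1 sign under both treatments, 1125 rose (11.4%) and 1368 fell (13.8%). A change of at least 1 on the log2 scale was reached by 191 of them, 55 higher and 136 lower. The median size of the change among the 2493 genes was 0.28 on the log2 scale under vehicle and 0.52 under 5+3. Of the 2493, 1994 had the larger change under 5+3, and for 165 the difference between the treatments passed the test of the interaction (473 of all genes, 4.78%, of which 201 or 2.03% were higher and 272 or 2.75% lower under 5+3 than under vehicle). In 162 of these 165 the change under 5+3 was the larger.

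Each treatment by itself gave very different numbers of calls. The diet changed 312 genes (3.15%) among vehicle mice, 100 higher (1.01%) and 212 lower (2.14%), and 3013 (30.5%) among 5+3 mice, 1383 higher (14%) and 1630 lower (16.5%). In the 16 mice these counts were 242 and 461. Of the vehicle calls 272 had the same sign under 5+3, and of the 5+3 calls 2287 had the same sign under vehicle. Only 175 genes (1.77%) were called under each treatment alone in 1 direction, 51 higher (0.516%) and 124 lower (1.25%). They made up 56.1% of the vehicle calls and 5.81% of the 5+3 calls, and 10 further genes were called in opposite directions. For 161 genes (1.63%) the mice of the diets did not overlap under either treatment, 57 with the BCAA-free mice above and 104 with them below, against 550 (5.56%) under vehicle and 1644 (16.6%) under 5+3 taken singly. The within-treatment comparisons share no mouse, so these are the genes for which the diets were separated in different animals.

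**Figure D1:**
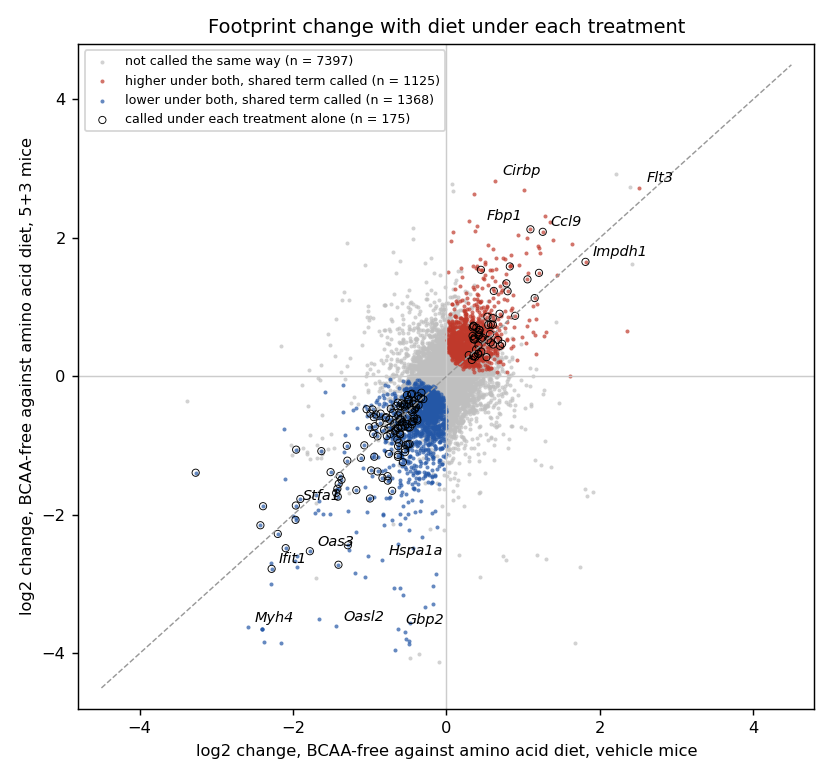
Log2 change of footprints between the BCAA-free and the AA diet under vehicle (horizontal axis) and under 5+3 (vertical axis), 1 point per protein-coding gene tested (9890). Colours mark the genes called by the shared term with 1 sign under both treatments and the 175 called under each treatment alone, 124 of which lie at the lower left and 51 at the upper right.

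Without the 5 libraries high in muscle genes, the shared effect lost most of its calls. Of the 2493 genes, 2483 were tested in the 16 mice, and 688 (27.7%) passed again in the same direction. The sign was the same for 2473 (99.6%), but both fits hold those 16 mice, so this share is largely fixed by how the genes were chosen. The median size of the change went from 0.40 to 0.37 on the log2 scale, and the median standard error (SE) from 0.11 to 0.14. Altogether 822 genes were called the same way in the 16 mice, 330 higher and 492 lower. Called under each treatment alone were 26 genes, 4 higher and 22 lower, and the interaction called 13 genes. Of the 177 genes named here the shared term called 165 with all mice, and 88 of those passed again in the same direction in the 16 mice.

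**Figure D2:**
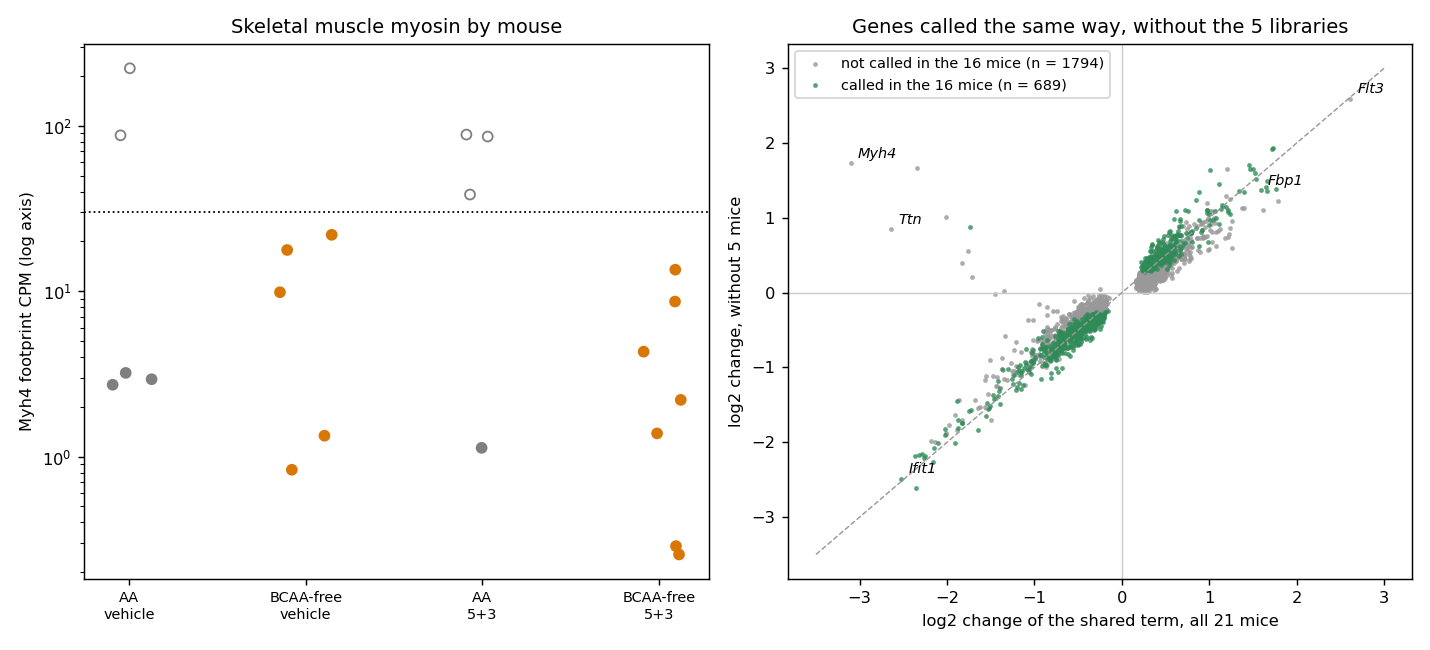
Left, footprints of Myh4 in each of the 21 mice by group, on a log axis in CPM, with the 5 AA libraries above the dotted line at 30 CPM drawn as open circles. Right, log2 change of the shared term with all 21 mice (horizontal) against that in the other 16 (vertical) for the genes called the same way; 2473 of 2483 have equal sign, and the muscle genes Myh4 and Ttn do not.

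Interferon-stimulated genes, which cells switch on in response to type I and II interferons, fell almost throughout on the BCAA-free diet. Of 36 list members tested, 33 were lower under both treatments and called by the shared term, and the other 3 did not pass (background 13.8% lower). For every list, the background is the share of all genes tested that was called the same way. With all mice it was 11.4% higher and 13.8% lower, 25.2% in all. List counts in the 16 mice come from another fit, which called a smaller share of all genes. They are not to be set against this background, and the calls over all genes in that fit are given above. For counts at an unadjusted p under 0.05 in the 16 mice, no share over all genes is given here. The median log2 change of the list was -0.87, at -0.66 under vehicle and -1.21 under 5+3, beside 0.01 for all genes. Called under each treatment alone were 10, and 22 of the 33 calls were also made in the 16 mice. In mRNA of the same mice 14 members fell.

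Promoters of such genes often hold the interferon-stimulated response element (ISRE). The letters GAAANNGAAA, searched on both strands in the 250 bases before each start in RefSeq's table for GRCm38.p6, were found in 9 of 28 list members with a window (32.1%). They were found in 3.43% of 7934 tested genes with a window, in 6.97% of the genes that fell the same way, in 2.98% of those that rose, and in 2.98% of all 32851 windows in the table. Of the genes called lower under each treatment alone, 13 of 100 held them. A match describes the letters and is not a binding site. The windows of 3 genes are shown because they carry the motif, in capitals on whichever strand it lies. They are Isg15 (chr4:156200819-156201068, minus strand), Ifit1 (chr19:34640639-34640888, plus strand) and Gbp7 (chr3:142530086-142530335, plus strand), each written 5′ to 3′ toward the start.
Isg15: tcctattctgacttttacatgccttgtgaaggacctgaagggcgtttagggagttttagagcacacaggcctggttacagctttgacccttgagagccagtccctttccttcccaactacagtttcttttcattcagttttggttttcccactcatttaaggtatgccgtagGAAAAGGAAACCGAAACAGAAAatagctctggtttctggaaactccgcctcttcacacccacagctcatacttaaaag
Ifit1: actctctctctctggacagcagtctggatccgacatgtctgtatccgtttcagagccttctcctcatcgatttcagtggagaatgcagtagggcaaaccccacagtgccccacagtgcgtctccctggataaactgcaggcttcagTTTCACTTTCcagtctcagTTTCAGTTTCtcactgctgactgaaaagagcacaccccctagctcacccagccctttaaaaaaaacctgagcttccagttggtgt
Gbp7: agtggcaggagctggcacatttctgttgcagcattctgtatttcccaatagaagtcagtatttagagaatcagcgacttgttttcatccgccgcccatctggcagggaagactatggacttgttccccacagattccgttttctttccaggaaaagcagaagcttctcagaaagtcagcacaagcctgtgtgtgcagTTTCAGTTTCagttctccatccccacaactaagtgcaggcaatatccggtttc
Isg15 held 3 overlapping matches, the farthest 78 bases before the start, Ifit1 held 2, at 104 and 85 bases, and Gbp7 held 1 at 53 bases.

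Ifit1, whose protein binds RNA with foreign cap structures (ENSMUSG00000034459, chromosome 19, 34640889 to 34650009), was among the genes lowered most. In vehicle mice its footprints were 7.16, 27.6, 9.61, 19.1 and 10.5 CPM on the AA diet and 1.97, 2.46, 2.45, 1.37 and 6.65 CPM on the BCAA-free diet. In 5+3 mice they were 13.7, 13.9, 5.41 and 14.4 CPM on the AA diet and 0.920 to 2.70 CPM (median 1.65, n = 7) on the BCAA-free diet. The groups did not overlap under either treatment. The shared log2 change was -2.53 ± 0.27 (SE), 5.76-fold lower, with an adjusted p of 9.629e-07 in edgeR, at -2.28 under vehicle and -2.78 under 5+3. Ifit1 and the other genes of the list singled out here beyond the 4 with the smallest adjusted p were chosen after their values were seen.

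Oas3, an enzyme that makes the 2-5A signal for RNase L in the presence of double-stranded RNA (ENSMUSG00000032661, chromosome 5, 120753098 to 120777684), showed the same order. Its footprints were 25.8, 35.0, 13.2, 26.4 and 24.1 CPM in AA vehicle mice and 5.42, 5.74, 8.24, 3.20 and 11.6 CPM in BCAA-free vehicle mice. After 5+3 they were 29.0, 22.4, 8.85 and 27.9 CPM on the AA diet and 2.04 to 5.66 CPM (median 3.37) on the BCAA-free diet. No BCAA-free mouse reached the lowest AA mouse under the same treatment, and Oas3 fell by 2.15 ± 0.23 on the log2 scale (adjusted p = 1.865e-06). Isg15, a ubiquitin-like modifier (ENSMUSG00000035692, chromosome 4, 156199424 to 156200818), was 15.0, 37.7, 12.1, 29.9 and 11.2 CPM in AA vehicle mice and 7.88, 4.51, 9.13, 5.93 and 10.8 CPM in BCAA-free vehicle mice. It was 27.0, 20.8, 10.3 and 22.6 CPM in AA 5+3 mice and 0.920 to 5.21 CPM (median 2.58) in BCAA-free 5+3 mice. Here too the diets did not overlap, though by a narrow margin under vehicle, and the shared change was -2.03 ± 0.30 (adjusted p = 9.238e-05).

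Oasl2, an OAS-like protein, was lower by a shared log2 change of -2.29 ± 0.48 (adjusted p = 0.00226), but its vehicle mice overlapped. Its AA vehicle mice were at 12.9, 53.2, 8.54, 36.1 and 8.15 CPM, and BCAA-free vehicle mice at 4.93, 6.98, 10.2, 2.28 and 16.2 CPM. AA 5+3 mice were at 21.5, 17.1, 5.90 and 26.8 CPM, and BCAA-free 5+3 mice at 0 to 3.40 CPM (median 1.02). Zbp1, a sensor of left-handed nucleic acid, changed by -1.90, with values of -1.06 under vehicle and -2.89 under 5+3, and did not pass in the 16 mice (adjusted p = 0.056). Slfn5, a member of the Schlafen family, fell by 1.55 on the log2 scale, at -1.96 under vehicle and -1.06 under 5+3.

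The members that relay or tune the interferon signal fell with the effectors. Irf9 changed by -0.72 ± 0.12, Irf7 by -1.08 ± 0.27 and Irf1 by -1.03 ± 0.21 on the log2 scale, all called by the shared term. Ddx58, which encodes the RNA sensor RIG-I, fell by 1.40, Usp18, the protease that removes ISG15, by 1.88, and Uba7, the enzyme that activates ISG15, by 1.05. Herc6, the mouse ligase of ISG15, fell by 1.15, and Samhd1, a dNTP hydrolase, by 0.71. Rtp4 fell by 1.87 and the large ring-finger ATPase Rnf213 by 0.88. The signal receptor subunit Ifngr1 went the other way, by 0.37 ± 0.08 (adjusted p = 0.00116), and did not pass in the 16 mice (adjusted p = 0.064).

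**Figure D3:**
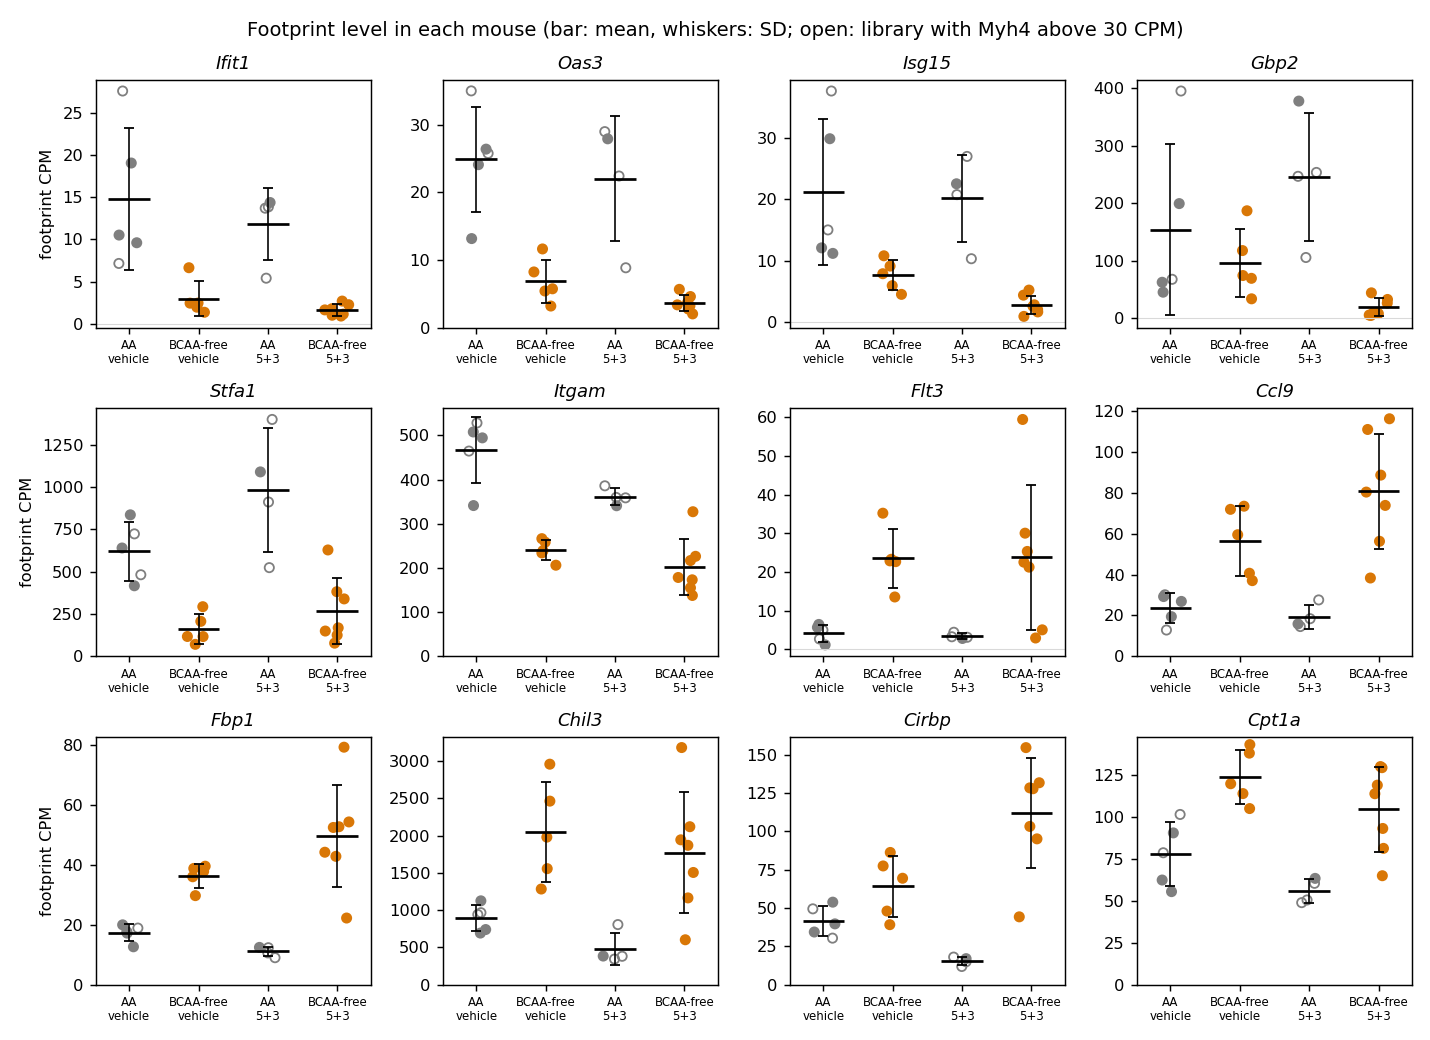
Footprints of selected genes in each of the 21 mice by group, in CPM on linear axes from 0, 1 point per mouse with the mean and SD (open circles, the 5 libraries high in Myh4). Ifit1, Oas3, Isg15 and Itgam separate the diets under both treatments, downward on the BCAA-free diet, and Ccl9, Fbp1 and Cpt1a upward.

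Guanylate-binding proteins and immunity-related GTPases, which interferon-γ induces strongly and which attack the vacuoles of intracellular pathogens, were lower, with the larger changes after 5+3. Of 15 tested, 14 were called lower the same way, with a list median of -1.64, but the median was -0.53 under vehicle and -3.16 under 5+3. None was called under vehicle alone and 14 were under 5+3 alone, and the difference between the treatments passed the interaction for 2 of the 15, Gbp5 and Gbp6, chosen after their values were seen. Gbp2 (chosen after its values were seen) shows the pattern. Its footprints were 67.3, 395, 44.9, 199 and 62.1 CPM in AA vehicle mice and 69.0, 73.9, 117, 33.3 and 187 CPM in BCAA-free vehicle mice, which overlapped. After 5+3 they were 253, 247, 105 and 378 CPM on the AA diet and 4.31 to 43.7 CPM (median 9.44) on the BCAA-free diet, with no overlap. The log2 change was -0.63 under vehicle (adjusted p = 0.653) and -3.65 under 5+3 (adjusted p = 5.284e-04). Igtp (-1.31), Irgm2 (-1.26), Gbp7 (-1.17) and Irgm1 (-0.93) were also called lower by the shared term. Under vehicle, however, the median was higher on the BCAA-free diet for Igtp (62.1 against 60.1 CPM), Irgm2 (51.7 against 42.4) and Gbp7 (73.5 against 70.3). That of Irgm1 was 60.1 against 60.8 CPM. AA vehicle replicates 2 and 4 held the highest values of the vehicle mice. For Igtp these were 189 and 135 CPM, beside 43.4 to 60.1 CPM in the other AA vehicle mice. All 9 list members with a promoter window held the ISRE letters. Without AA vehicle replicate 2, the mouse with the highest Gbp2, 9 members of the list were called. None passed in the 16 mice after adjustment in edgeR, where 11 were lower at an unadjusted p under 0.05.

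Genes of MHC class I presentation, which cut, load and display peptides to T cells, gave 15 of 21 members called lower (median -0.48, at -0.19 under vehicle and -0.91 under 5+3). H2-K1, a classical class I heavy chain, changed by -0.94 ± 0.24, H2-T23 by -0.86, H2-Q7 by -0.85, and the light chain B2m by -0.60; leaving out 1 mouse ended the call of B2m in 12 of 21 fits. The immunoproteasome subunit Psmb9 changed by -0.77, the proteasome activator Psme2 by -0.41, the trimming peptidase Erap1 by -0.32, and Nlrc5, the transactivator of class I genes, by -1.24. Under vehicle the median was higher on the BCAA-free diet for B2m (1754 against 1546 CPM), Psmb9 (107 against 101) and Nlrc5 (9.80 against 8.90). It was lower for the other members named here, such as H2-K1 (1286 against 1389 CPM). After 5+3 the median of B2m was 662 CPM on the BCAA-free diet and 1430 CPM on the AA diet. Only 1 member passed in the 16 mice, and 9 were lower at an unadjusted p under 0.05. Of the genes in these groups, Gbp, Tgtp and H2-Q members have near-identical copies, so their footprints are uncertain as to the copy.

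Stefins, small cytosolic inhibitors of cysteine proteases that mouse myeloid cells express from a gene cluster, fell to a like extent under both treatments. Of 9 tested, 8 were called lower, 6 under each treatment alone, and 8 in the 16 mice, with a list median of -1.91. Stfa1 (ENSMUSG00000071562, chromosome 16, 36277148 to 36285371) was 482, 724, 640.1, 836 and 416 CPM in AA vehicle mice and 116, 116, 69.7, 206 and 293 CPM in BCAA-free vehicle mice. It was 1401, 912, 524 and 1091 CPM in AA 5+3 mice and 76.8 to 628 CPM (median 167) in BCAA-free 5+3 mice. The diets did not overlap under vehicle and overlapped under 5+3. The shared change of Stfa1 was -1.91 ± 0.34 (adjusted p = 6.758e-04), at -1.96 under vehicle and -1.87 under 5+3. Csta1 (-2.26), Stfa3 (-2.10), Stfa2 (-1.87) and Stfa2l1 (-1.83) were lower too. The stefins are near-identical copies, so these values are not independent, and the list was drawn up after their values were seen.

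Some surface proteins of myeloid cells were lower as well. Lists of such cells had few calls: of 18 tested genes of monocytes and macrophages 2 were called lower and 1 higher (background 13.8% and 11.4%), and of 11 mature neutrophil markers 1 was called, higher. Itgam, the αM integrin chain CD11b (ENSMUSG00000030786, chromosome 7, 128062640 to 128118491), was 528, 465, 494, 341 and 508 CPM in AA vehicle mice and 206, 239, 234, 266 and 258 CPM in BCAA-free vehicle mice. It was 386, 359.6, 359 and 341 CPM in AA 5+3 mice and 137 to 327 CPM (median 178) in BCAA-free 5+3 mice. The diets did not overlap under either treatment, and the shared change was -0.89 ± 0.12 (adjusted p = 1.336e-05). Its partner chain Itgb2 fell by 0.77 ± 0.09 on the log2 scale (adjusted p = 1.375e-06).

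Adgre1, the F4/80 antigen of macrophages and part of myeloid cells (ENSMUSG00000004730, chromosome 17, 57358581 to 57483529), was 233, 168, 200.4, 179 and 211 CPM in AA vehicle mice. It was 78.3, 79.2, 57.2, 104 and 87.7 CPM in BCAA-free vehicle mice, all below the lowest AA mouse. After 5+3 it was 101, 86.0, 105 and 122 CPM on the AA diet and 35.1 to 91.2 CPM (median 41.8) on the BCAA-free diet, where 1 mouse overlapped. Adgre1 fell by 1.15 ± 0.14 on the log2 scale (adjusted p = 1.596e-05). It belongs to a list of resident macrophage markers, whose summed level was 487 to 589 CPM in AA vehicle, 306 to 332 in BCAA-free vehicle, 335 to 483 in AA 5+3 and 263 to 386 in BCAA-free 5+3 mice. Of 7 tested members of that list, 2 were called lower (Adgre1 and Vcam1, -0.39) and 1 higher (Hmox1, 0.77). Adgre1 and Vcam1 made up most of the summed level. In AA vehicle mice their medians were 200 and 319 CPM, beside a median of 535 CPM for the sum. The median log2 change of the 7 members was 0.01, at 0.20 under vehicle and -0.17 under 5+3. In bulk samples fewer cells of a type and less RNA per cell cannot be told apart.

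Paired immunoglobulin-like receptors, which raise or restrain the activation of myeloid cells, were lower under each treatment alone. Pirb, an inhibitory member, fell by 1.47 ± 0.19 on the log2 scale, Lilra6 by 1.54 ± 0.21 and the activating Pira2 by 1.41 ± 0.23. Olfm4, a glycoprotein of neutrophil granules, fell by 1.52 ± 0.22, and the adhesion molecule Ceacam1 by 0.81 ± 0.12. These genes and the αM and β2 integrin chains were chosen after their values were seen, and the Pir and Lilra genes are near-identical copies. Csf1r, the receptor of macrophage colony-stimulating factor, fell by 0.76, Cd33 by 0.55 and Csf3r, the granulocyte colony-stimulating factor receptor, by 0.39; of these Cd33 passed in the 16 mice.

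Lists of progenitor genes and of cytokine receptors were mixed. Of 16 primary granule and progenitor genes tested, 3 were called higher and 4 lower (43.8% in all, background 25.2%). Of 23 genes of cytokine receptors and JAK-STAT signalling, 4 were called higher and 5 lower (39.1% in all). Flt3, the receptor tyrosine kinase of early haematopoietic progenitors and dendritic precursors (ENSMUSG00000042817, chromosome 5, 147330741 to 147400489), was the named gene raised most. In vehicle mice it was 5.01, 2.69, 5.70, 1.17 and 6.45 CPM on the AA diet and 22.7, 13.5, 35.2, 23.3 and 22.9 CPM on the BCAA-free diet, with no overlap. After 5+3 it was 3.13, 3.26, 4.43 and 2.82 CPM on the AA diet and 2.95 to 59.4 CPM (median 22.5) on the BCAA-free diet, where the lowest BCAA-free mouse lay among the AA mice. The shared change was 2.61 ± 0.48 (6.11-fold, adjusted p = 8.42e-04), at 2.51 under vehicle and 2.72 under 5+3. Flt3 was at 2.59 in the 16 mice, with an adjusted p of 0.0511. Kit, the stem cell factor receptor, rose by 0.52 ± 0.15 and did not pass in the 16 mice (adjusted p = 0.296).

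Ccl9, a chemokine made by myeloid cells (ENSMUSG00000019122, chromosome 11, 83572917 to 83578636), was 30.1, 12.8, 29.2, 19.4 and 26.8 CPM in AA vehicle mice and 71.9, 59.5, 73.5, 40.6 and 37.0 CPM in BCAA-free vehicle mice. It was 14.5, 18.3, 27.5 and 15.8 CPM in AA 5+3 mice and 38.3 to 116 CPM (median 80.4) in BCAA-free 5+3 mice. Every BCAA-free mouse lay above every AA mouse of the same treatment, and the shared change was 1.66 ± 0.24 (adjusted p = 1.11e-04). Chil3, a chitinase-like secreted protein, was 966, 941, 692, 739 and 1125 CPM in AA vehicle mice and 1980.4, 1557, 2960.3, 1284 and 2464 CPM in BCAA-free vehicle mice. After 5+3 it was 806, 380.3, 343 and 383 CPM on the AA diet and 602 to 3184 CPM (median 1871) on the BCAA-free diet, with an overlap set by 1 AA mouse. Chil3 rose by 1.54 ± 0.27 (adjusted p = 6.128e-04), and its close copies Chil4 and Chia1 by 1.53 and 1.40, which cannot be cleanly told from it. Chia1 did not pass in the 16 mice (1.13, adjusted p = 0.187). In the list of chemokines, cytokines and secreted myeloid proteins, 2 of 15 rose (Ccl9 and Chil3) and 6 fell, 4 of them stefins, with Cxcl10 at -1.98 and Vegfa at -0.51. The median of Cxcl10 under vehicle was 5.82 CPM on the BCAA-free diet and 5.01 CPM on the AA diet. After 5+3 it was 0.509 and 16.4 CPM.

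Impdh1, an isoform of the rate-limiting dehydrogenase of guanine nucleotide synthesis (ENSMUSG00000003500, chromosome 6, 29200436 to 29216364, chosen after its values were seen), separated the diets in all mice. It was 2.15, 2.69, 5.70, 4.11 and 2.72 CPM in AA vehicle mice and 13.3, 14.0, 14.7, 10.0 and 12.9 CPM in BCAA-free vehicle mice. It was 5.48, 4.48, 7.38 and 1.97 CPM in AA 5+3 mice and 9.74 to 18.8 CPM (median 15.9) in BCAA-free 5+3 mice. The shared change was 1.73 ± 0.19 (3.32-fold, adjusted p = 9.629e-07). Of 33 genes of nucleotide synthesis tested, 7 rose and 2 fell (27.3% in all, near the background of 25.2%). Gmps, which completes guanine nucleotide synthesis, rose by 0.40, and Prps2, which makes the ribose donor, by 0.24, while the one-carbon enzyme Mthfd2 fell by 0.87. Among the 16 mice 2 of these genes rose and none passed as lower in edgeR, with 4 lower at an unadjusted p under 0.05.

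Other genes raised under both treatments serve adhesion, ion transport and RNA binding. Eng, a co-receptor of the TGF-β family, rose by 1.34 ± 0.15 (adjusted p = 9.629e-07), the scaffold protein Iqgap2 by 1.21, the matrix protein Tinagl1 by 1.14, the ATP-gated channel subunit P2rx3 by 1.19 and the volume-regulated channel subunit Lrrc8c by 1.13. Cirbp, a cold-inducible RNA-binding protein, was 49.4, 30.3, 53.8, 39.6 and 34.3 CPM in AA vehicle mice and 77.4, 69.3, 86.2, 47.9 and 39.1 CPM in BCAA-free vehicle mice, which overlapped. It was 14.9, 17.9, 11.8 and 16.9 CPM in AA 5+3 mice and 44.2 to 155 CPM (median 128) in BCAA-free 5+3 mice, which did not. Its log2 change was 0.64 under vehicle and 2.82 under 5+3, and this difference passed the test of the interaction (adjusted p = 0.0103). The shared change of Cirbp, 1.61, did not pass in the 16 mice (1.11, adjusted p = 0.12). Rbm3, its relative, rose by 0.45 under vehicle and 1.54 under 5+3, each called alone, with an interaction as well (adjusted p = 2.607e-04). Srsf5, a splicing factor, was called by the shared term but had opposite signs under the treatments (-0.20 and 1.71). Its shared call was lost in 14 of the 21 fits that leave out 1 mouse and in the 16 mice (adjusted p = 0.557).

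In carbohydrate metabolism, several enzymes of glycolysis and the oxidative pentose phosphate branch fell and the opposing gluconeogenic enzyme rose. Of 32 genes tested, 14 were called lower and 2 higher (median -0.17), of which 6 and 2 were called under each treatment alone. The 16 mice gave 6 lower and 2 higher. Fbp1, fructose-1,6-bisphosphatase (ENSMUSG00000069805, chromosome 13, 62864753 to 62888298), was 17.2, 18.9, 19.9, 12.6 and 17.7 CPM in AA vehicle mice and 36.0, 37.8, 38.7, 29.7 and 39.5 CPM in BCAA-free vehicle mice. It was 10.6, 8.97, 12.3 and 12.4 CPM in AA 5+3 mice and 22.2 to 79.2 CPM (median 52.4) in BCAA-free 5+3 mice. All BCAA-free mice lay above all AA mice, and Fbp1 rose by 1.59 ± 0.20 on the log2 scale (3.01-fold, adjusted p = 1.794e-05).

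Pfkp, an isoform of phosphofructokinase, which catalyses the reverse step (ENSMUSG00000021196, chromosome 13, 6579874 to 6649060), was 125, 132, 109, 109.7 and 123 CPM in AA vehicle mice and 81.3, 74.7, 76.8, 100.4 and 94.8 CPM in BCAA-free vehicle mice. It was 164, 133, 146 and 139 CPM in AA 5+3 mice and 69.0 to 119 CPM (median 84.7) in BCAA-free 5+3 mice, again with no overlap. The shared change of Pfkp was -0.61 ± 0.09 (adjusted p = 1.328e-05), and that of the liver-type isoform Pfkl was -0.91. The hexokinases Hk3 and Hk2 fell by 0.54 and 0.33, and the aldolase Aldoa by 0.43. In the pentose phosphate branch the dehydrogenases G6pdx and Pgd fell by 0.60 and 0.36, while the lactonase between them, Pgls, rose by 0.50.

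Genes of mitochondrial fatty acid oxidation, a list drawn up after some of its values were seen, gave 9 of 23 called higher and 1 lower (background 11.4% higher), with 5 higher under each treatment alone and 6 in the 16 mice. Cpt1a, which makes the carnitine esters that enter mitochondria (ENSMUSG00000024900, chromosome 19, 3322326 to 3385735), was 102, 78.8, 55.5, 62.5 and 90.6 CPM in AA vehicle mice and 143, 138, 120.0, 114 and 105 CPM in BCAA-free vehicle mice. It was 49.0, 50.5, 60.5 and 63.5 CPM in AA 5+3 mice and 65.0 to 130.3 CPM (median 114) in BCAA-free 5+3 mice. The diets did not overlap, and Cpt1a rose by 0.80 ± 0.13 (adjusted p = 1.148e-04).

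Acot1, a cytosolic acyl-CoA thioesterase, was 21.5, 14.1, 14.2, 18.2 and 20.4 CPM in AA vehicle mice and 28.1, 34.1, 33.8, 25.6 and 31.2 CPM in BCAA-free vehicle mice. After 5+3 it was 12.5, 12.2, 18.2 and 11.8 CPM on the AA diet and 20.9 to 44.5 CPM (median 31.7) on the BCAA-free diet. No mice of the diets overlapped under either treatment. Acot1 rose by 1.01 ± 0.13 (adjusted p = 4.184e-06) and its near-identical neighbour Acot2 by 0.91. Both count among the higher calls of the list, although Acot1 is cytosolic and these values are not independent. The β-oxidation enzymes Hadh and Eci2 rose by 0.52 and 0.50, and the peroxisomal reductase Pecr by 0.72.

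Part of the genes of lipid synthesis fell, with the larger median change after 5+3. Of 27 genes of cholesterol synthesis and uptake, 11 were called lower the same way, and the interaction was called for 12 members of the list (medians -0.10 under vehicle and -0.69 under 5+3). Sqle, squalene epoxidase, was 20.8, 20.9, 15.0, 23.2 and 28.2 CPM in AA vehicle mice and 10.8, 14.8, 12.5, 15.1 and 18.7 CPM in BCAA-free vehicle mice, with some overlap. It was 43.5, 28.5, 36.4 and 32.2 CPM in AA 5+3 mice and 8.14 to 16.5 CPM (median 11.8) in BCAA-free 5+3 mice, with none. Sqle fell by 1.10 ± 0.16 on the log2 scale (adjusted p = 2.334e-05), Stard4, a sterol carrier, by 0.94, and Fdps, farnesyl diphosphate synthase, by 0.91. The 16 mice gave 5 members lower and 1 higher. Of 19 genes of fatty acid synthesis and desaturation, 8 fell, among them the desaturases Scd2 (-0.90), Scd1 (-0.86) and Fads1 (-0.85), and 1 rose, Cpt1a, which opposes the rest of its list. Without any 1 of AA 5+3 replicates 1, 2 or 3 the lower count was 5, and in the 16 mice it was 1.

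Enzymes of BCAA breakdown were mixed, with 33.3% called in all beside a background of 25.2%. Of 24 tested, 5 were called higher and 3 lower (median 0.12), and 2 and 2 in the 16 mice. The subunits of the branched-chain ketoacid dehydrogenase, the committed step, were among the former: Bckdha rose by 0.39 ± 0.12, Bckdhb by 0.41 ± 0.14 and Dbt by 0.51 ± 0.11. None of these 3 passed in the 16 mice (adjusted p = 0.0714, 0.0564 and 0.102 in edgeR), and Bckdhb also lost its call without AA vehicle replicate 3, AA 5+3 replicate 1 or 4, or BCAA-free vehicle replicate 3. Echs1, an enoyl-CoA hydratase, rose by 0.51, and Pccb, a propionyl-CoA carboxylase subunit, by 0.37. Mccc1, of the leucine branch, fell by 0.53. The aminotransferase Bcat2 was at -0.02 ± 0.08 and the inhibitory kinase Bckdk at 0.23 ± 0.09, and neither passed. Bcat1 did not pass the filter on low counts.

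**Figure D4:**
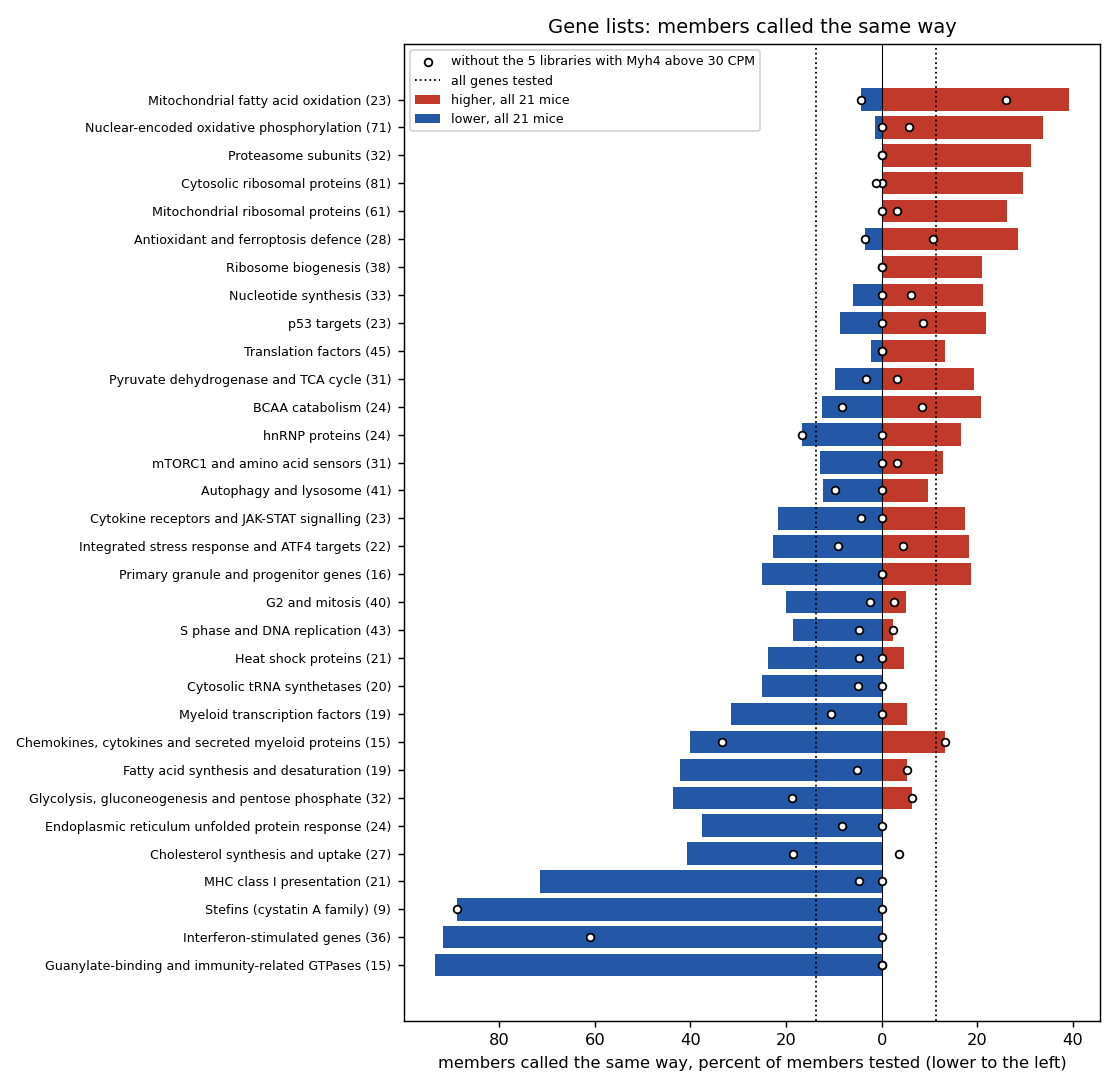
For each pathway or gene family list with at least 5 such members (cell type marker lists are not drawn), the percent of tested members called by the shared term with 1 sign under both treatments, with bars to the right for higher and to the left for lower on the BCAA-free diet. Dots give the same in the 16 mice without the libraries high in muscle genes. Dotted lines mark the background over all genes with all mice (11.4% higher and 13.8% lower). They apply to the bars and not to the dots, as a smaller share of all genes was called in the 16 mice. Bars of interferon, GTPase, MHC class I and stefin genes extend farthest to the left among the lists drawn.

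The amino acid response did not move as a unit. The background was 11.4% higher and 13.8% lower. In the list of the integrated stress response and targets of the transcription factor ATF4, 4 of 22 were called higher and 5 lower (1 and 2 in the 16 mice). Phgdh, the first enzyme of serine synthesis (ENSMUSG00000053398, chromosome 3, 98313171 to 98339969), was 88.0, 122, 66.9, 101 and 72.6 CPM in AA vehicle mice and 167, 155, 169.9, 124 and 116 CPM in BCAA-free vehicle mice. It was 122, 157, 140.2 and 105 CPM in AA 5+3 mice and 175 to 491 CPM (median 274) in BCAA-free 5+3 mice. A single pair of vehicle mice overlapped and none after 5+3, and Phgdh rose by 0.97 ± 0.19 (adjusted p = 0.00139). Psph, the last enzyme of that path, rose by 0.55 and Pycr1, of proline synthesis, by 0.78, while Aldh18a1, which acts before Pycr1, fell by 0.44. Eif2ak4, which encodes GCN2, fell by 0.67 ± 0.13 (adjusted p = 4.593e-04) and Cebpb by 0.46. Footprints of Atf4 (-0.28 ± 0.23), asparagine synthetase Asns (0.02 ± 0.15) and the leucine sensor Sesn2 (0.25 ± 0.19) did not pass, and Ddit3 and Chac1 did not pass the filter on low counts.

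Of 15 amino acid transporters, 1 rose and 1 fell (13.3% in all, below the background of 25.2%). Slc7a5, the light chain of the LAT1 exchanger that carries leucine (ENSMUSG00000040010, chromosome 8, 121881146 to 121907686), was 60.1, 70.0, 42.4, 50.4 and 56.7 CPM in AA vehicle mice and 74.9, 68.1, 52.99, 68.5 and 63.6 CPM in BCAA-free vehicle mice. It was 79.9, 69.3, 72.3 and 57.8 CPM in AA 5+3 mice and 78.2 to 149 CPM (median 133) in BCAA-free 5+3 mice. Mice of the diets overlapped under both treatments, and Slc7a5 rose by 0.55 ± 0.12 (adjusted p = 0.00189). Its heavy chain Slc3a2 was at 0.04 ± 0.09 and did not pass, and the glutamine carrier Slc38a2 fell by 0.20. The call of Slc38a2 was lost without AA 5+3 replicate 1 or 3 and in the 16 mice (adjusted p = 0.362), where Slc7a5 was the list's remaining call. Among 31 genes of mTORC1 and its amino acid sensors, 4 rose and 4 fell, near the background of 11.4% and 13.8%, and the higher count was 2 without AA 5+3 replicate 1, 2 or 3. The kinase gene Mtor fell by 0.36 and the GATOR1 subunits Depdc5 and Nprl2 by 0.66 and 0.53, while Deptor, an inhibitor of the kinase, rose by 0.80. Of those 4, Deptor alone passed in the 16 mice (adjusted p = 0.047).

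Of 20 cytosolic tRNA synthetases, which charge tRNAs with amino acids, 5 were called lower and 1 of them in the 16 mice. Mars, for methionine (ENSMUSG00000040354, chromosome 10, 127296221 to 127311786), was 129.6, 138, 122, 108 and 105 CPM in AA vehicle mice and 85.2, 77.1, 81.5, 77.1 and 91.0 CPM in BCAA-free vehicle mice, with no overlap. It was 171, 146, 175 and 151 CPM in AA 5+3 mice and 94.1 to 156 CPM (median 112) in BCAA-free 5+3 mice, with some. Mars fell by 0.51 ± 0.08 on the log2 scale (adjusted p = 3.269e-05). Aars, for alanine, fell by 0.42, Yars, for tyrosine, by 0.46, and Iars, for isoleucine, by 0.43. A background of 13.8% lower stands beside the 5 calls of this list. The median log2 change of its members was -0.28 under vehicle and 0.006 under 5+3. Under 5+3 alone 3 members were called lower and 1 higher, and the interaction was called for 2.

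Part of the ribosomal protein genes rose slightly. Of 81 cytosolic ribosomal protein genes, 24 were called higher the same way (background 11.4%), but the median change was 0.02 under vehicle and 0.36 under 5+3, where 51 were called. Rplp1, a stalk protein, was 229, 217, 249, 318 and 255 CPM in AA vehicle mice and 332, 458, 272, 357 and 381 CPM in BCAA-free vehicle mice. It was 207, 280.1, 266 and 273 CPM in AA 5+3 mice and 273 to 494 CPM (median 378) in BCAA-free 5+3 mice. The diets overlapped a little in each case, and Rplp1 rose by 0.52 ± 0.10 (adjusted p = 8.422e-04). Rps21, Rpl36 and Rpl39 rose by 0.48, 0.41 and 0.38. The count was 12 without BCAA-free vehicle replicate 2 and 39 without AA vehicle replicate 4. Among the 16 mice 1 member was lower and none higher after adjustment in edgeR, with 8 higher at an unadjusted p under 0.05.

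Some mitochondrial components rose by a similar amount. Of 71 nuclear-encoded genes of oxidative phosphorylation, 24 were called higher and 1 lower (median 0.16), and of 61 mitochondrial ribosomal proteins 16 higher (median 0.10). The ATP synthase subunit gene Atp5g2 rose by 0.46, Uqcr10, of complex III, by 0.41, Ndufa7, of complex I, by 0.39 and Cox6b1, of complex IV, by 0.26. Mrps9 and Mrpl52 rose by 0.56 each. In the 16 mice 4 and 2 members of these lists were called higher. Of 38 ribosome biogenesis genes 8 rose, such as Wdr12 (0.37), of 45 translation factors 6 rose, near the background of 11.4%, such as Eif5a (0.32), and 1 fell, and of 32 proteasome subunits 10 rose, such as Psma6 (0.28). None of these 3 lists had a call in the 16 mice in edgeR, where 4, 2 and 6 members were higher, and 2 translation factors lower, at an unadjusted p under 0.05. The 10 proteasome calls fell to 6 without AA 5+3 replicate 4 or BCAA-free vehicle replicate 3, and the 6 translation factors to 3 without AA 5+3 replicate 3 or 4.

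Some chaperones fell and some antioxidant enzymes rose. Hspa1a, the inducible HSP70, was 9.31, 8.08, 5.70, 25.8 and 5.43 CPM in AA vehicle mice and 4.93, 3.69, 4.90, 11.4 and 7.90 CPM in BCAA-free vehicle mice, which overlapped. It was 38.0, 41.2, 12.3 and 19.7 CPM in AA 5+3 mice and 2.04 to 8.14 CPM (median 4.40) in BCAA-free 5+3 mice, which did not. Hspa1a fell by 1.86 ± 0.39 on the log2 scale (adjusted p = 0.00227) and its near-identical copy Hspa1b by 1.57, and neither passed in the 16 mice (adjusted p = 0.0532 and 0.0759). Of 21 heat shock proteins 5 were called lower and 1 higher (28.6% in all, background 25.2%), with Hsph1 at -1.53 and Hsp90aa1 at -0.34. Of 24 genes of the endoplasmic reticulum unfolded protein response 9 fell (medians -0.03 under vehicle and -0.44 under 5+3), among them Hsp90b1 (-0.47), Hyou1 (-0.49), Pdia4 (-0.48) and Creld2 (-0.70). In the 16 mice 1 and 2 members of these lists were called lower.

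Prdx1, a peroxiredoxin that reduces peroxides (ENSMUSG00000028691, chromosome 4, 116685599 to 116700000), was 173, 156, 218, 179 and 194 CPM in AA vehicle mice and 232, 216, 246, 271 and 219 CPM in BCAA-free vehicle mice. It was 189, 203, 188 and 207 CPM in AA 5+3 mice and 272 to 377 CPM (median 323) in BCAA-free 5+3 mice. A single pair of vehicle mice overlapped, and Prdx1 rose by 0.54 ± 0.08 (adjusted p = 1.242e-05). Of 28 genes of antioxidant and ferroptosis defence 8 rose and 1 fell, and 3 rose in the 16 mice. Sod1 rose by 0.48, Prdx6 by 0.33 and Gpx4, which reduces lipid peroxides, by 0.29. Outside the list, the glutathione transferase Gsto1 rose by 0.55 and Odc1, the first enzyme of polyamine synthesis, by 0.55; both were chosen after their values were seen.

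Lists of genes of growth and death had shares of calls on both sides of the share over all genes. Over all genes tested, 25.2% were called the same way, 11.4% higher and 13.8% lower. The share called was 20.9% for S phase and DNA replication and 25% for G2 and mitosis. It was 30.4% for p53 targets, 20% for the Bcl2 family and 36.8% for myeloid transcription factors, which are also described here. Of 43 genes of S phase and DNA replication 8 fell and 1 rose: Pola1, a DNA polymerase subunit, by -0.40, Cdc45 by -0.42 and Mcm5 by -0.23, against 0.42 for thymidine kinase Tk1. Of 40 genes of G2 and mitosis 8 fell and 2 rose, with Mki67 at -0.34, Top2a, the target of doxorubicin, at -0.37, Anln at -0.42 and the centromeric histone Cenpa at 0.35. Without BCAA-free 5+3 replicate 2 the lower count was 13, and without AA 5+3 replicate 3 Mki67 lost its call. In the 16 mice the lower counts were 2 and 1. Among 23 p53 targets 5 rose and 2 fell, and among 15 members of the Bcl2 family 3 rose, the BH3-only genes Bbc3 (0.85), Pmaip1 (0.66) and Bid (0.28), of which Bbc3 passed in the 16 mice. The Bcl2 family count was 1 without BCAA-free vehicle replicate 1, and Bid lost its call without AA 5+3 replicate 2 or 3. Footprints of Cdkn1a (0.23 ± 0.18), Myc (0.15 ± 0.08), Hoxa9 (0.16 ± 0.09) and Meis1 (0.01 ± 0.08) did not pass, nor did Ms4a3 (-0.10 ± 0.26) and Irf8 (0.05 ± 0.30). Of 19 myeloid transcription factors 6 fell, among them Cebpe (-0.66), Cebpd (-0.61) and Gfi1 (-0.34), and 1 rose, with 2 lower in the 16 mice. Of 41 genes of autophagy and the lysosome 5 fell and 4 rose, at or below the background of 13.8% and 11.4%. The higher count was 2 without AA 5+3 replicate 1 or 4, and no member was called higher in the 16 mice in edgeR, where 4 were higher at an unadjusted p under 0.05. The lysosomal hydrolases Neu1 and Hexa fell by 0.69 and 0.52 under both treatments, each called alone.

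Messenger RNA of the same mice moved in the same direction with fewer calls. Of the 2493 genes, 2440 were tested in mRNA, and 2199 (90.1%) had the sign seen in footprints, against 73.0% of all 9664 genes tested in both. These readouts come from the same mice, so agreement in sign is not independent of the mice drawn. The mRNA shared term called 168 of the 9664 (1.74%), and 134 of the 2440, all in the footprint direction. The median SE was 0.20 in mRNA and 0.11 in footprints. Of the 175 genes called under each treatment alone 171 were tested in mRNA, 162 had the same sign and 36 were called. Flt3 rose by 2.78 ± 0.35 in mRNA and Impdh1 by 2.49 ± 0.32 (adjusted p = 1.21e-04 for each), and Ccl9 by 1.32, Fbp1 by 1.41, Cpt1a by 0.91 and Acot1 by 1.07. Ifit1 fell by 2.30, Oas3 by 2.30, Isg15 by 1.89, Stfa1 by 1.77, Itgam by 0.81 and Adgre1 by 1.09. The mRNA changes of Pfkp (-0.34 ± 0.17), Mars (-0.42 ± 0.22), Rplp1 (0.32 ± 0.31) and Prdx1 (0.71 ± 0.22) did not pass.

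Translational efficiency, the footprint change beyond the mRNA change, was tested over all 42 libraries with the mouse as a block. No gene of 9664 passed (0%) in edgeR, 491 had an unadjusted p under 0.05, and DESeq2 called 12. The median SE of this log2 change was 0.23.

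**Figure D5:**
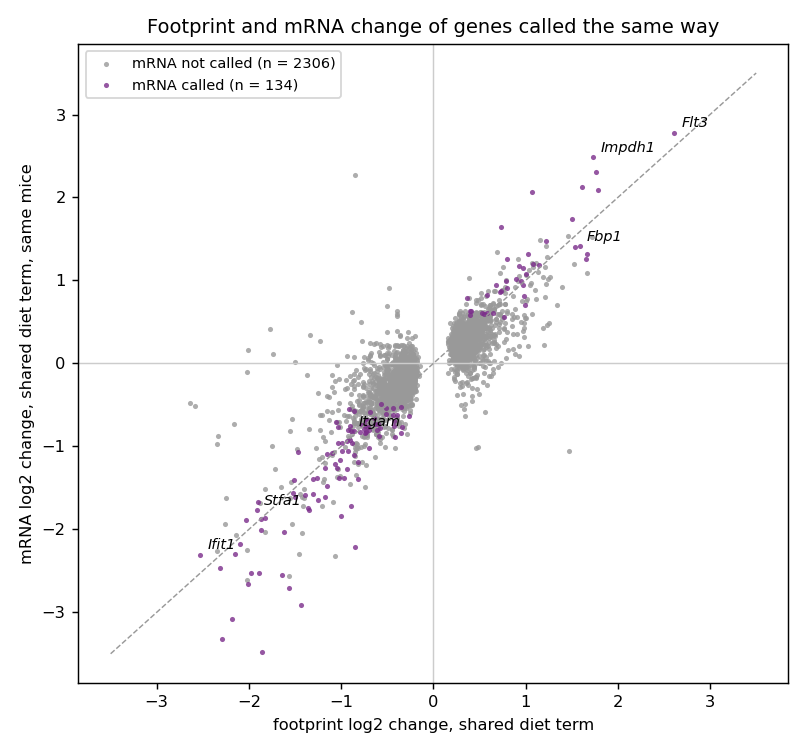
Log2 change between the diets, shared over treatments, in footprints (horizontal axis) and in mRNA (vertical axis) of the same 21 mice, 1 point per gene called the same way in footprints and tested in mRNA (2440), with the 134 called in mRNA coloured. Of these genes 2199 have the same sign on both axes.

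Markers of other cells moved with the groups. The summed level of 7 tested erythroid markers was 66.0 to 263 CPM in AA vehicle, 220 to 397 in BCAA-free vehicle, 178 to 276 in AA 5+3 and 17.6 to 85.4 in BCAA-free 5+3 mice, so that it went up with the diet under vehicle and down under 5+3. That of 11 mature neutrophil markers was 861 to 1225, 896 to 1355, 473 to 1251 and 129 to 1013 CPM in the same order, and 1 of them, Retnlg, was called higher (1.19). The median of Retnlg under vehicle was 14.1 CPM on the AA diet and 46.3 CPM on the BCAA-free diet. After 5+3 it was 3.55 CPM on the AA diet and 2.95 CPM on the BCAA-free diet. Among 5+3 mice alone, 4 of the 11 markers were called lower and none higher. The call of Retnlg was lost with DESeq2, without the 2 libraries of lowest total count and in the 16 mice (adjusted p = 0.0852). Among 7 tested markers of eosinophils, basophils and mast cells, the basophil proteases Prss34 and Mcpt8 were higher by 1.78 and 1.03, at a mean of 4.57 and 4.36 CPM. In the same list Siglecf, a lectin of eosinophils, was lower by 0.32, and none of the 3 passed in the 16 mice. Only 1 of 11 B cell and 1 of 12 T and NK cell markers passed the filter on low counts. The B cell marker, the receptor subunit Cd79b, was 16.1 ± 2.92 CPM (SD, n = 5) in AA vehicle, 26.7 ± 4.94 (n = 5) in BCAA-free vehicle, 12.4 ± 1.63 (n = 4) in AA 5+3 and 17.5 ± 3.60 (n = 7) in BCAA-free 5+3 mice. Cd79b rose by 0.61 (adjusted p = 7.831e-04), was called under each treatment alone and passed in the 16 mice (adjusted p = 0.0215). Skeletal muscle markers gave 10 of 14 called lower, with Myh4 at -3.10 and titin, Ttn, at -2.64, and 2 of 3 tested stromal markers, the collagens Col1a1 and Col1a2, were at -2.02 and -2.01; leaving out 1 mouse ended the call of Col1a1 in 15 of 21 fits. The part of these cells in the results above was not tested.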

How the data were processed

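Whole-number counts per gene were used as the authors deposited them, 1 table for footprints and 1 for mRNA. The build was GRCm38 (mm10) per the submitters' processing notes, which list STAR, Bowtie2, featureCounts, cutadapt and SAMtools without their settings. Whether reads were counted by strand is not given in the sources used here. Groups came from the labels. Of 55487 gene identifiers 55141 had a symbol, and 21359 were protein-coding by RefSeq's gene table for GRCm38.p6. Pseudogene rows held 21.7% to 29.5% of footprint counts.

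Tests of protein-coding counts used edgeR 4.0.16 under R 4.3.3: filterByExpr (minimum count 10, minimum total 15), TMM scaling, and the robust quasi-likelihood test with Benjamini-Hochberg adjustment, threshold 0.05. The shared term came from a fit with treatment and diet, and the diet changes within each treatment and their interaction from 1 fit of the 4 groups. P-values measure the spread between mice. Sampling noise was exceeded in all 47 comparisons of footprint libraries of the same group (chi-square per degree of freedom 2.48 to 16.3). The tests were tested on simulated data.

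Named genes were the 12 highest and 12 lowest shared changes among called genes with a mean of at least 10 CPM, the same sign under both treatments and that direction in at least 75% of mouse pairs, up to 4 members of each list with the smallest adjusted p, and a panel of 24 genes. The genes and the 48 gene lists were chosen with earlier results of these data known, and 3 lists (skeletal muscle, fatty acid oxidation, stefins) and further genes after values were seen. Alternatives used limma 3.58.1 and DESeq2 1.42.0. The share of branched-chain residues in the encoded proteins was not analysed here.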

Additional observations from a re-analysis of the deposited data

Results flagged for a closer look

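Single mice lay far from the rest of their group in 6 of the 96 sets of gene and group given mouse by mouse, and chance gives about 1 in 20. Ifit1 was 6.65 CPM in BCAA-free vehicle replicate 5 (others 1.37 to 2.46) and 5.41 CPM in AA 5+3 replicate 3 (others 13.7 to 14.4). Adgre1 was 91.2 CPM in BCAA-free 5+3 replicate 3 (others 35.1 to 57.0), and was the BCAA-free mouse that overlapped the AA mice after 5+3. Chil3 was 806 CPM in AA 5+3 replicate 1 (others 343 to 383). Acot1 was 18.2 CPM in AA 5+3 replicate 3 (others 11.8 to 12.5), and Hspa1a was 25.8 CPM in AA vehicle replicate 4 (others 5.43 to 9.31).

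The diet change differed between the treatments, by the interaction in edgeR, for 19 of the 177 genes named. As the log2 change under 5+3 minus that under vehicle, it was more positive under 5+3 for Cirbp (2.19), Srsf5 (1.90), Rbm3 (1.09), Sod1 (0.53), Echs1 (0.52) and Wdr12 (0.52). It was more negative for the chaperones Hsph1 (-2.04), Creld2 (-1.12) and Pdia4 (-0.46), for the sterol genes Fdps (-1.16), Sqle (-0.93) and Stard4 (-0.90), for the GTPases Gbp5 (-3.28) and Gbp6 (-3.26), and for Cxcl10 (-3.08), Irf1 (-1.19), Pfkl (-0.89), Nprl2 (-0.86) and Cebpe (-0.69). All but Srsf5 had the same sign under both treatments. Without the 5 libraries high in muscle genes, 13 genes of all those tested passed the interaction.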

How the results depend on the processing

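Across the other scaling, filter and test settings tried with all 21 mice, the count of genes in the shared term was 2024 to 3186 (2571 as reported). Leaving out the 5 AA libraries with Myh4 above 30 CPM, chosen after seeing the data, gave 826 genes in the shared term, 822 the same way, 26 under each treatment alone, 461 under 5+3 and 13 for the interaction, with fewer mice. Muscle and collagen genes then reversed: Ttn 0.85, Myh4 1.73, Actn3 0.40, Atp2a1 0.88 and Col1a1 1.01 on the log2 scale, of which Atp2a1 passed (adjusted p = 0.0466). Requiring a call under each treatment alone left 175 genes, and 115 without the 2 libraries of lowest total count. Leaving out 1 mouse at a time gave 2080 to 2743 genes in the shared term, 2052 to 2659 the same way, 96 (without BCAA-free vehicle replicate 1) to 264 (without BCAA-free 5+3 replicate 2) under each treatment alone, 173 (without AA vehicle replicate 5) to 314 under vehicle, 2359 to 3334 under 5+3, 257 (without AA 5+3 replicate 1) to 762 (without BCAA-free 5+3 replicate 2) for the interaction, 74 (without AA 5+3 replicate 1) to 333 (without BCAA-free vehicle replicate 5) in mRNA and 0 to 3 in translational efficiency. In mRNA, 193 genes passed over all genes in its own filter, 532 with DESeq2; in translational efficiency DESeq2 called 12. The cause of these differences was not tested.

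After removal of group means, the correlation of same-numbered footprint libraries was -0.256 to 0.338 over 27 pairs, 6 of them over 0.1. The median correlation of the mRNA and footprint libraries of the same mouse was 0.124. Of 21 footprint libraries, 14 correlated best with the mRNA of their own mouse. As known pairs also correlate weakly, these values cannot tell whether replicate numbers pair the mice. With a replicate block the shared term called 2024 genes, 2018 the same way, the interaction 272 and mRNA 37. Genes below the filter's minimum count of 10 were not tested. Of the 165 called genes named above, a replicate block ended the call of 17 (among them Gbp2, Gbp5, Gbp6, Igtp, Irgm1, Irgm2, Psmb9, Nlrc5, Cxcl10 and Vcam1), limma-voom of 7, leaving out the 2 libraries of lowest total count of 7, no filter on low counts of 5 and DESeq2 of 1 (Retnlg).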
